A study of Mus musculus with 24 samples.

Results

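The 40 endothelial genes followed here are a fixed list of symbols for proteins that mark or build the inner lining of blood and lymph vessels. They were read as rows of one deposited array table, and a gene with several probe sets was represented by the probe set with the highest mean over all 24 arrays. All 40 were found among the 18193 named genes. The arrays carried RNA of the jaws of C57B6 mouse embryos at embryonic day 12.5. Knockout embryos came from a cross that deletes floxed Tgfbr2, the type II receptor for TGF-beta, with Wnt1-Cre, and were picked by cleft palate and calvarial defects. Control embryos were littermates, and the sources used here do not state their genotype. Each mandible and maxilla was cut into a distal and a proximal end, which gave 8 groups of 3 arrays: knockout and control distal mandible, knockout and control proximal mandible, knockout and control distal maxilla, and knockout and control proximal maxilla. Whether the 3 arrays of a group stand for 3 different embryos is not stated, and each p-value therefore reflects only the spread between arrays, which may be technical.

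Endothelial cells line all vessels, and their growth is driven by VEGF, which acts on the receptors Kdr, Flt1 and Flt4, and by angiopoietins, which act on Tek. ETS-family factors such as Erg and Fli1 and Sox factors of the Sox17 group switch on much of their gene set, while Notch ligands, chiefly Dll4, set arterial fate and Prox1 sets lymphatic fate. TGF-beta and its relatives also act on vessels, through co-receptors such as Eng. Wnt1-Cre, however, acts in neural crest cells and some of the nervous system. Neural crest gives rise to most facial mesenchyme and to the pericytes and smooth muscle of facial vessels, whereas the endothelium has another, mesodermal origin. The gene was therefore not deleted by design in the cells that make most of the proteins described here.

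Of the 40 genes, 23 had an entry in the RefSeq promoter table of build GRCm38.p6, which holds 300 bases around each start site. The 4 promoters below are shown because each holds a short ETS motif and belongs to a gene that differed between the jaws. Capitals mark the letters CAGGAAG or, on the other strand, CTTCCTG. They are the promoters of Cd34 (chr1:194938571-194938870, plus strand), Emcn (chr3:137340828-137341127, plus strand), Apln (chrX:48034804-48035103, minus strand) and one of the 3 listed starts of Erg (chr16:95459299-95459598, minus strand).
Cd34: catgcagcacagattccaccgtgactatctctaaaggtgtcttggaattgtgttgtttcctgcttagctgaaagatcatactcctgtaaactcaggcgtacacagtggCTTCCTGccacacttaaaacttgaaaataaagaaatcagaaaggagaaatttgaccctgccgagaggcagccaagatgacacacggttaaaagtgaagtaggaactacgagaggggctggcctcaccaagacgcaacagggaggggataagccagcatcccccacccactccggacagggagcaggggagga
Emcn: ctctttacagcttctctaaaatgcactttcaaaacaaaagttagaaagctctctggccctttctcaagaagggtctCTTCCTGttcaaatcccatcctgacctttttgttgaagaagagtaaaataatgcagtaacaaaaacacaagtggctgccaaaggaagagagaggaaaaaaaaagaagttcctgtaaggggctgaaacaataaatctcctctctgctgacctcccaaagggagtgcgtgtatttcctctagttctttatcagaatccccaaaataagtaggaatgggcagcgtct
Apln: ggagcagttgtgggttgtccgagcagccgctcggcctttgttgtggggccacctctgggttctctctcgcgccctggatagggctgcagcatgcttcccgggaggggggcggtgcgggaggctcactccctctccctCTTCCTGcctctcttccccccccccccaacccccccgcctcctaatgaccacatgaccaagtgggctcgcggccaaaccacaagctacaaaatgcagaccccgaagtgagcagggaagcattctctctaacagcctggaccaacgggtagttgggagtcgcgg
Erg: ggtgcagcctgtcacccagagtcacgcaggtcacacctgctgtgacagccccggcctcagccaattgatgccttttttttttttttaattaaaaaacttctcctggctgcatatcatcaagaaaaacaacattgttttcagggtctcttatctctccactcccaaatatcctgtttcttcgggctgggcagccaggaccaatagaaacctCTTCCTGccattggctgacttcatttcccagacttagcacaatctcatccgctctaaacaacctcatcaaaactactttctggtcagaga
Searched on both strands, the ETS letters stood in at least 1 promoter of 9 of the 23 endothelial genes (39.1%) and of 14.8% of all 27025 genes in the table. The 9 were Apln, Calcrl, Cd34, Egfl7, Emcn, Erg, Rasip1, Rhoj and Robo4. The letters ACAATG, a Sox motif, stood in 3 of the 23 (13%), Calcrl, Erg and Rhoj, against 14.3% of all genes. Both motifs were chosen after the expression values had been seen, and a match describes letters in a window and no binding.

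The deposited values are log2 signals, on which a difference of 1 is a 2-fold ratio. Array medians lay between 7.26 and 7.38. The 30th percentile of an array, between 5.85 and 5.93, was taken as background, and genes entered the test when at least 3 arrays exceeded it. That held for 14879 genes and for 38 of the 40. Lyve1, a hyaluronan receptor of lymphatic vessels, was above background in 2 arrays by the probe set with the higher mean, with 6.48 in knockout proximal maxilla and 6.18 in control distal maxilla. Its second probe set was above background in 6 arrays, at 5.94 to 6.67, of which 2 were of knockout and 2 of control proximal maxilla, and did not pass in any comparison with all probe sets tested. Gja5, a gap junction protein of arteries, was above it in 1 array, with 6.10 in knockout distal mandible. All 6 defining endothelial markers were above background in all 24 arrays: the adhesion protein Pecam1 lay between 8.18 and 9.82, the cadherin Cdh5 between 10.52 and 11.02, Kdr between 9.58 and 10.59, the receptor Tie1 between 8.72 and 9.50, the angiopoietin receptor Tek between 8.01 and 9.73 and the sialomucin Emcn between 8.83 and 10.42. Endothelium was thus measured in every group. In bulk tissue, fewer endothelial cells and less RNA per endothelial cell cannot be told apart.

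Tgfbr2 itself was not lower in knockout jaws. It lay between 11.30 and 12.68 in the 12 knockout arrays and between 11.28 and 12.16 in the 12 control arrays, with a mean difference of 0.34 (SE 0.11, limma adjusted p = 0.1115). The sources used here do not say whether its probe set lies in the deleted stretch, so this value does not check the labels. Of the 24 arrays, 7 resembled the other end of their own jaw and genotype more than their own group over all genes. In 2 of the jaw pieces both ends of the same number did so, and these 4 arrays, all of number 1, are treated as doubted. They were control proximal maxilla 1 (mean correlation 0.54 with its own group and 0.69 with the other end), control distal maxilla 1 (0.36 and 0.69), knockout distal mandible 1 (0.33 and 0.68) and knockout proximal mandible 1 (0.44 and 0.60). The other 3 of the 7 were control distal maxilla 2 (0.58 and 0.64), knockout distal mandible 2 (0.55 and 0.61) and knockout proximal maxilla 3 (0.20 and 0.38). Results that rest on ends are therefore given with and without the 4 doubted arrays. The 4 control arrays of number 2 carried signal of Y-linked genes and the other 20, among them all 12 knockout arrays, did not. Sex was therefore not balanced between the genotypes.

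**Figure D1:**
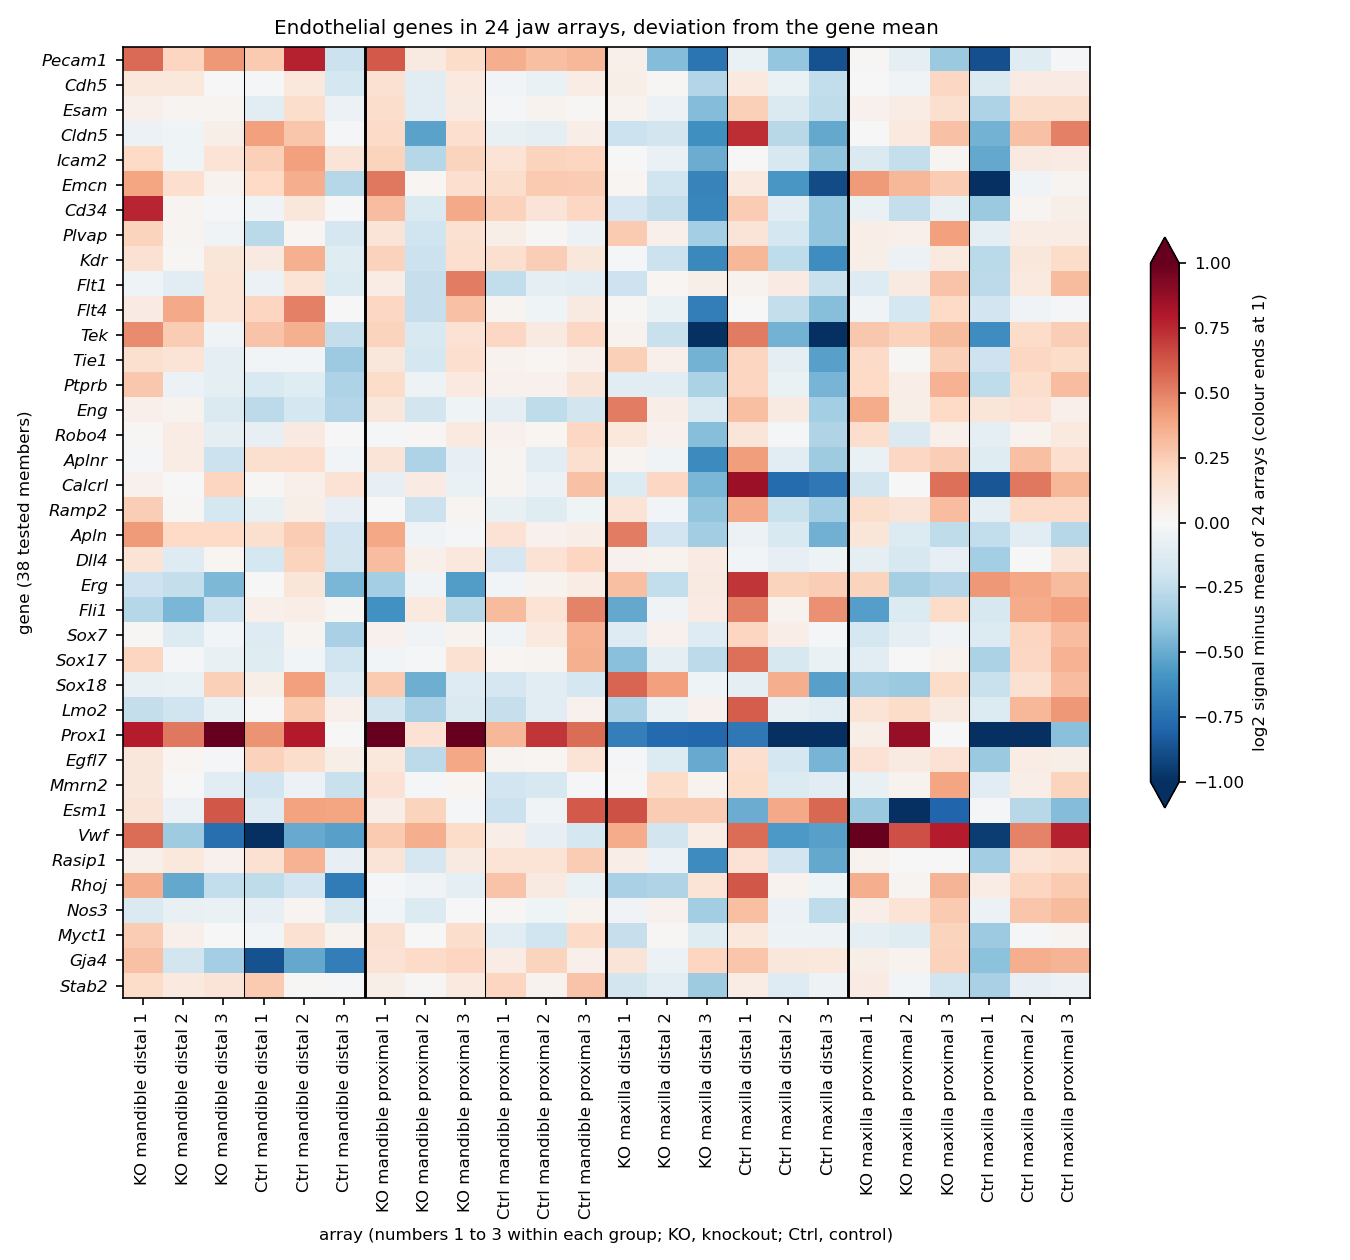
Deviation of each of the 38 tested endothelial genes (rows) from its own mean over 24 arrays, in log2 units, by array (columns, in 8 groups of 3, knockout left of control in each region). Red is higher and blue lower, and colours end at 1 on either side. Whole columns shift together: 35 of 38 genes lay below their mean in control proximal maxilla 1, and 32 of 38 lay above it in control distal maxilla 1.

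The map of deviations shows arrays in which most endothelial genes lay on one side of their mean. In control distal maxilla 1, 32 of 38 lay above their mean and 11 had their highest value of all 24 arrays. In control distal maxilla 2 and 3, 29 and 34 of the 38 lay below their mean. The proximal maxilla of controls ran the other way, with 35 of 38 below in array 1 and 30 and 32 above in arrays 2 and 3. Knockout distal maxilla 3 held the lowest of 24 values for 14 genes. Over all genes, at most 59.6% lay below their mean in any array. Control proximal maxilla 1 and control distal maxilla 3, where 35 and 34 genes lay below their mean, had the highest differences between the 3' and 5' control probe sets of Gapdh, a sign of RNA quality (0.39 and 0.31), and of actin (0.52 and 0.49). The same arrays had low scores, the mean deviation of a list's genes, for macrophages (−0.88 and −0.65) and mural cells (−0.51 and −0.62). Knockout distal maxilla 3 had 0.14 for Gapdh, 0.40 for actin, −0.35 for macrophages and −0.47 for mural cells, and control distal maxilla 1, with the highest endothelial score, had 0.20, 0.46, 0.06 and 0.27. The part of RNA quality and of these cells in the array shifts was not tested. The genes most uneven over arrays were Prox1 (SD over 24 arrays 0.82), Vwf (0.65) and the tip-cell proteoglycan Esm1 (0.53), and the steadiest were Cdh5 (0.13) and the guidance receptor Robo4 (0.14).

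No endothelial gene was called between knockout and control jaws when the 4 regions were averaged. Of 38 genes, 0 passed an adjusted p of 0.05 in limma, against 0.47% of all genes tested, a background that leaving out 1 array moved to between 0.0403% and 14.3%. At an unadjusted p of 0.05, 5 of 38 passed (13.2%), against 23.2% of all genes. By direction, 22 were higher and 16 lower in knockouts, with a median difference of 0.02 over the 38 and 0.01 over all genes. With array medians centred the split turned to 16 higher and 22 lower, and the split of all genes under that setting is not given here. For the defining markers, the 95% interval of the difference was −0.19 to 0.36 for Pecam1, −0.07 to 0.17 for Cdh5, −0.26 to 0.16 for Kdr, −0.10 to 0.29 for Tie1, −0.30 to 0.41 for Tek and −0.04 to 0.53 for Emcn.

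The ETS factors stood lowest among the 38. Fli1 had a lowest, median and highest value of 10.71, 11.06 and 11.50 in knockout arrays, against 11.16, 11.54 and 11.82 in control arrays. The ranges overlapped, and the mean difference was −0.45 (SE 0.10, limma adjusted p = 0.0521). Fli1 was lower in knockouts in all 4 regions, by −0.37 in distal mandible, −0.58 in proximal mandible, −0.49 in distal maxilla and −0.38 in proximal maxilla, and its second probe set gave −0.59 over the regions. Fli1 is also made outside vessels, in blood-forming cells and, in zebrafish, in arch neural crest, and the source of the signal was not tested. Erg, which in the embryo is made mainly in endothelium and cartilage, had 8.98, 9.31 and 9.85 in knockout arrays against 9.09, 9.72 and 10.26 in control arrays. Its ranges overlapped too, with a difference of −0.35 (SE 0.09, adjusted p = 0.0621), lower in all 4 regions, and −0.26 by its second probe set. Fli1 or Erg passed the threshold under several other settings, listed with the processing below. Lmo2, a partner of blood and endothelial transcription factors, had 9.52, 9.73 and 10.02 in knockout arrays against 9.61, 9.86 and 10.45 in control arrays, with a difference of −0.18 (SE 0.08, adjusted p = 0.1887).

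The genes highest in knockouts were Prox1, Vwf and Emcn. Prox1, the lymphatic factor, had 6.0, 7.12 and 7.92 in knockout arrays against 5.38, 6.58 and 7.58 in control arrays, a difference of 0.55 (SE 0.15, adjusted p = 0.0623). Its second probe set above background gave 0.09, so its probe sets disagreed in size. Vwf, the clotting protein stored by endothelium, had 7.90, 8.97 and 9.80 in knockout arrays against 7.04, 8.32 and 9.43 in control arrays, with a difference of 0.51 (SE 0.21, adjusted p = 0.1518). Emcn, a sialomucin of veins and capillaries, had 9.22, 10.06 and 10.42 in knockout arrays against 8.83, 9.95 and 10.26 in control arrays, with a difference of 0.25 (SE 0.14, adjusted p = 0.2772). In all 3 the groups overlapped widely. The sign was positive in all 4 regions for 7 of 38 genes (Eng, Emcn, Plvap, Mmrn2, Prox1, Apln and Vwf) and negative in all 4 for 5 (Erg, Fli1, Icam2, Nos3 and Lmo2), and over all genes the shares were 14.9% and 13.9%.

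**Figure D2:**
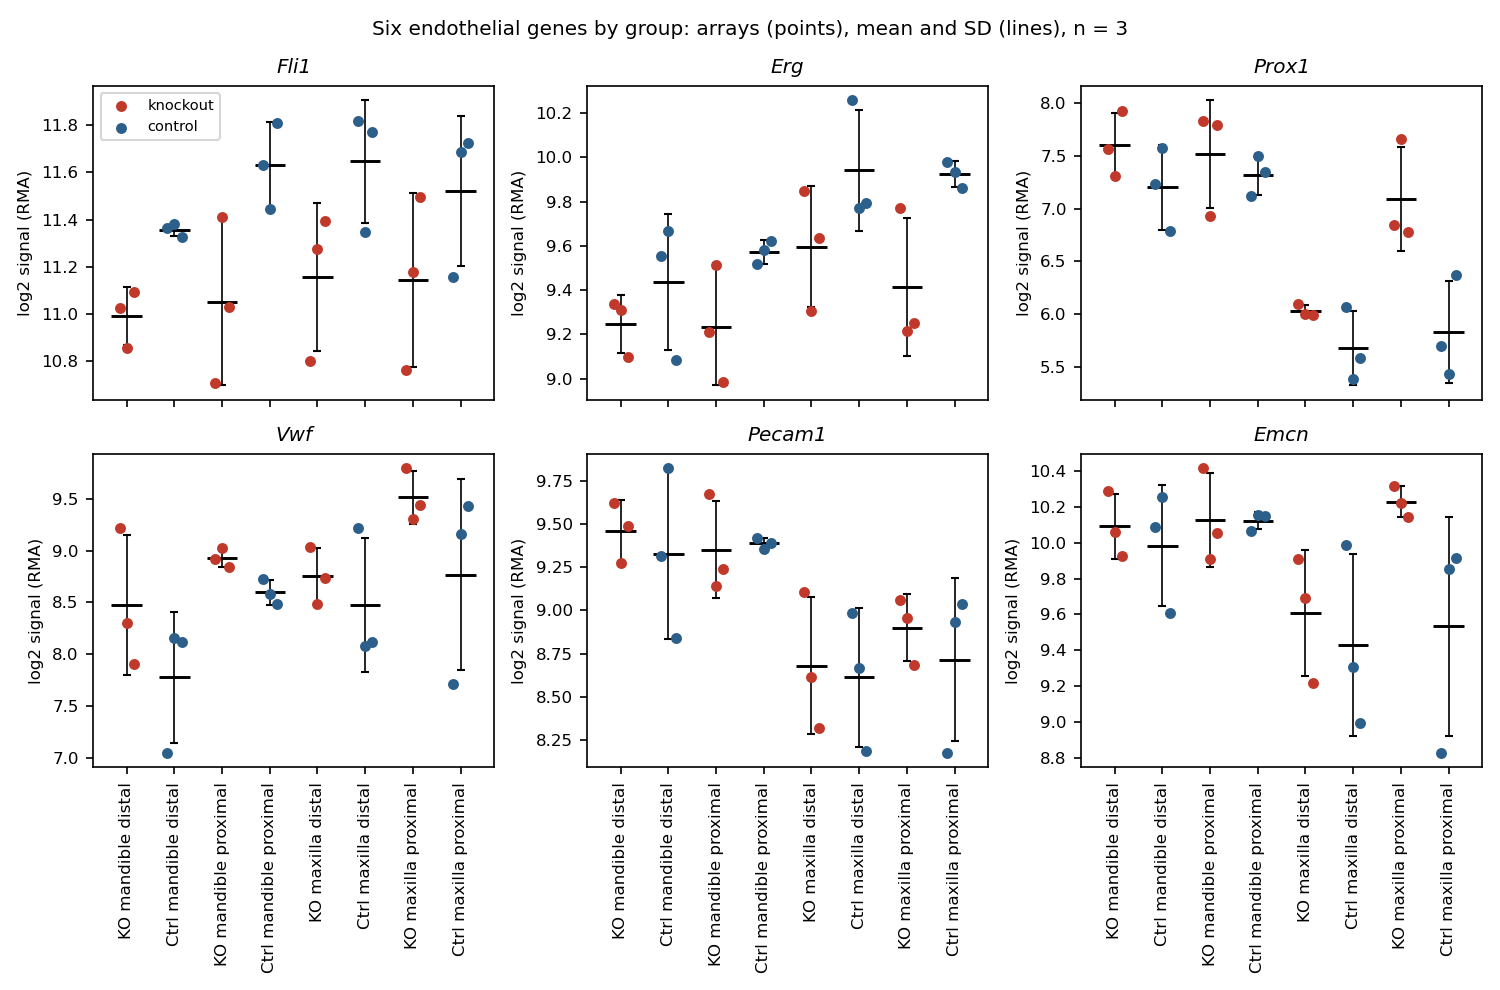
Log2 signal of 6 endothelial genes (vertical axes, each on its own range) in the 8 groups, knockout left of control in each region. Points are single arrays, and lines give mean and SD of 3 arrays. Fli1 and Erg lay lower in knockout than in control groups on average, with overlap, and Prox1 and Pecam1 lay higher on average in the 12 mandible arrays than in the 12 maxilla arrays, also with overlap.

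**Figure D3:**
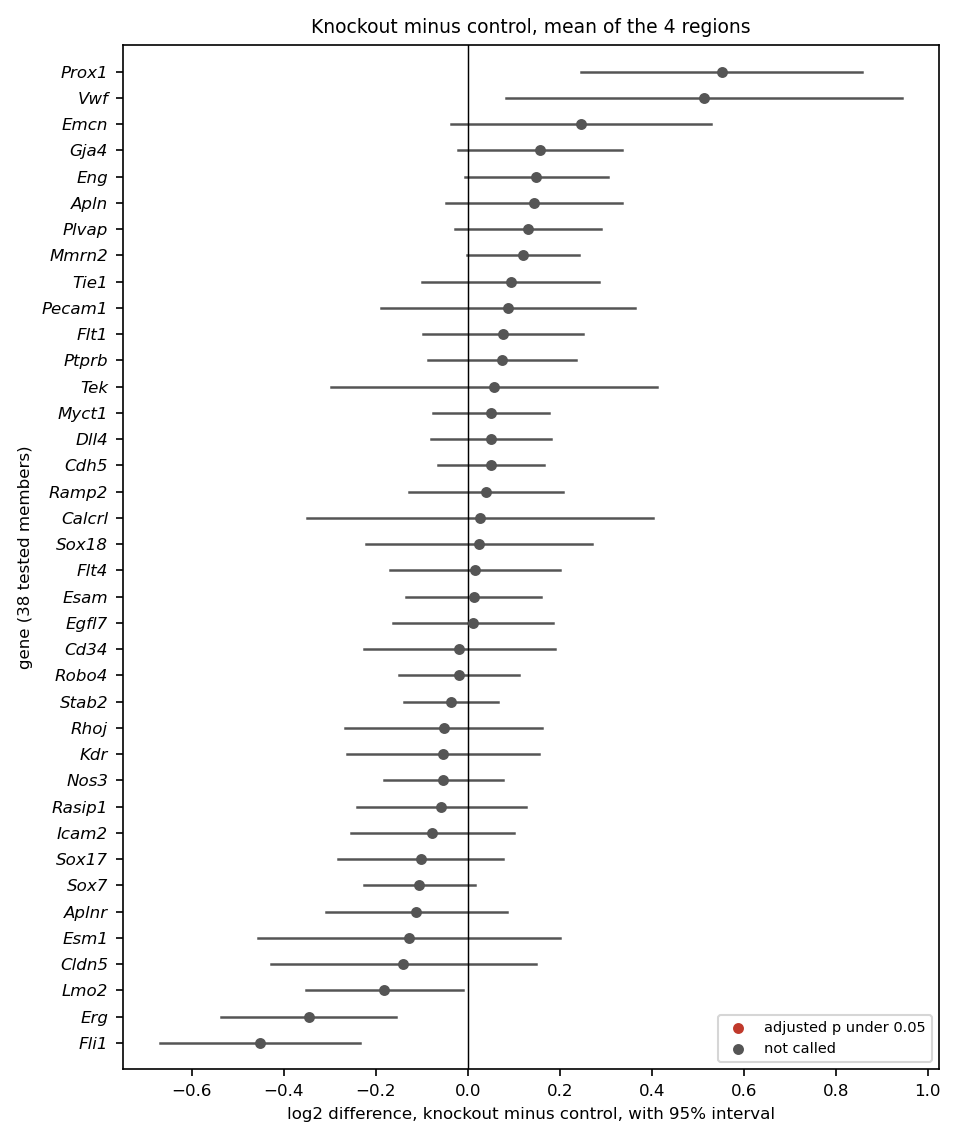
Difference of knockout minus control, averaged over 4 regions, for 38 endothelial genes (points, log2 units, horizontal axis), with limma's 95% intervals unadjusted for the number of genes (lines). No gene passed an adjusted p of 0.05. The lowest was Fli1 at −0.45 and the highest Prox1 at 0.55.

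None of the remaining genes was called. Among VEGF receptors the differences were −0.05 for Kdr, 0.08 for Flt1 and 0.02 for Flt4, and among the Tie receptors and their phosphatase they were 0.06 for Tek, 0.09 for Tie1 and 0.07 for Ptprb. Eng, the TGF-beta co-receptor that was the member nearest to the deleted pathway, differed by 0.15 (95% interval −0.01 to 0.31). The apelin receptor Aplnr differed by −0.11 and its ligand Apln by 0.14. The adrenomedullin receptor parts Calcrl and Ramp2 differed by 0.03 and 0.04, Robo4 by −0.02 and Dll4 by 0.05. Surface and junction genes lay between −0.14 (the claudin Cldn5) and 0.25 (Emcn), with Icam2 at −0.08, Cd34 at −0.02, Esam at 0.01 and the diaphragm protein Plvap at 0.13. The Sox factors Sox7, Sox17 and Sox18 differed by −0.11, −0.10 and 0.02. Secreted Egfl7, Mmrn2 and Esm1 differed by 0.01, 0.12 and −0.13, and the signalling genes Rasip1, Rhoj, Nos3 and Myct1 by −0.06, −0.05, −0.05 and 0.05. The arterial connexin Gja4 differed by 0.16 and the sinusoid receptor Stab2 by −0.04.

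Of 35 further vessel genes that are not among the 40, 23 were higher and 12 lower in knockouts, with a median of 0.04. The one called was Nrp1, a VEGF and semaphorin co-receptor that nerves and mesenchyme also make, at 0.52 (SE 0.11, adjusted p = 0.0347). Of all genes, 0.47% were called in this comparison. Markers of other cells gave the following counts. Macrophage genes were higher in knockouts in 12 of 12 (0 called, median 0.32), with an array score of −0.36 to 0.89 in knockout arrays and −0.88 to 0.25 in control arrays. Mural-cell genes were higher in 7 of 10 (0 called, scores −0.47 to 0.61 in knockouts and −0.63 to 0.27 in controls), and erythroid genes were lower in 8 of 8 (0 called, −0.69 to 0.30 in knockouts and −0.23 to 0.80 in controls). Muscle genes were higher in 9 of 9 (0 called, median 1.62), neuron genes in 7 of 11 (1 called) and glial genes in 5 of 5 (1 called). The endothelial score itself lay between −0.32 and 0.17 in knockout arrays and between −0.33 and 0.22 in control arrays. The part of these other cells in the values above was not tested.

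Region by region, 1 endothelial gene passed, in the proximal maxilla. Here and below, overlap is stated only for genes whose values are printed, and the share of all genes without overlap is not given. Eng in distal mandible and Mmrn2 in proximal mandible, for example, did not overlap between the genotypes either. With 3 arrays a group, a lack of overlap is a description and no test. In the distal mandible 0 of 38 were called (0.134% of all genes). Gja4 had 9.18, 8.71 and 8.55 in knockout distal mandible against 8.02, 8.37 and 8.19 in control distal mandible. The groups did not overlap, and the difference of 0.62 (SE 0.17) had a limma adjusted p of 0.1466. Vwf (9.22, 8.30 and 7.90 in knockouts against 7.04, 8.16 and 8.12 in controls) and Prox1 (7.57, 7.31 and 7.92 against 7.24, 7.58 and 6.78) overlapped, with differences of 0.70 and 0.40. The 9.18 of Gja4 and the 9.22 of Vwf were those of knockout distal mandible 1, a doubted array that resembled the proximal end. Fli1 had 11.02, 10.86 and 11.10 in knockouts against 11.36, 11.38 and 11.33 in controls, without overlap, and a difference of −0.37 (SE 0.21, adjusted p = 0.4842). Lmo2 (9.60, 9.64 and 9.77 in knockouts against 9.84, 10.10 and 9.89 in controls) did not overlap either and differed by −0.27, while Cldn5 overlapped and differed by −0.24. Among further vessel genes, the venous factor Nr2f2 was called higher in knockouts there, at 1.52 (SE 0.25, adjusted p = 0.0140). Nr2f2 was also lower distally than proximally in the mandible, at −1.06, and the knockout group includes the doubted array.

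In the proximal mandible 0 of 38 were called (0.0538% of all genes), and the largest differences were again those of Fli1 and Erg. Fli1 had 10.71, 11.41 and 11.03 in knockout proximal mandible against 11.63, 11.45 and 11.81 in control proximal mandible, without overlap, and a difference of −0.58 (SE 0.21, adjusted p = 0.9998). Erg had 9.21, 9.51 and 8.98 in knockouts against 9.52, 9.58 and 9.62 in controls, without overlap, and a difference of −0.34. Rasip1, a regulator of vessel lumen formation, had 8.85, 8.56 and 8.82 in knockouts against 8.86, 8.87 and 8.98 in controls, without overlap, at −0.16 (SE 0.18). On the positive side stood Vwf at 0.33 (8.92, 9.02 and 8.84 in knockouts against 8.73, 8.58 and 8.49 in controls, without overlap), Flt1 at 0.27 and Prox1 at 0.20.

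In the distal maxilla 0 of 38 were called (0.0202% of all genes). Fli1 had 10.80, 11.27 and 11.39 in knockout distal maxilla against 11.82, 11.35 and 11.77 in control distal maxilla, which overlapped at 1 array, with a difference of −0.49 (SE 0.21, adjusted p = 0.9999). The GTPase Rhoj differed by −0.37 (10.27, 10.29 and 10.73 in knockouts against 11.22, 10.63 and 10.55 in controls) and Sox17 by −0.37 (8.69, 9.01 and 8.84 against 9.66, 8.95 and 9.04). Both overlapped, and in both the highest control value was that of array 1, one of the 4 that resembled the other end. Sox18 at 0.40, Prox1 at 0.35 and Vwf at 0.28 were the highest.

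In the proximal maxilla 1 of 38 was called, higher in knockouts (of all genes, 5.77% were called and 3.25% were called higher, and leaving out 1 array moved the called share to between 0.128% and 22.6%). Prox1 had 6.84, 7.66 and 6.78 in knockout proximal maxilla against 5.70, 5.44 and 6.37 in control proximal maxilla. The groups did not overlap and the difference was 1.26 (SE 0.29, limma adjusted p = 0.0235). Of the control values 2 lay below background, so the size of the difference is uncertain. Over 37 other settings the difference ranged from 0.59 to 1.53. The second probe set of Prox1 gave 0.09. The call was lost without the 4 doubted arrays (adjusted p = 0.0965, with 0.101% of all genes called), without the 4 arrays with Y-linked signal (0.1259) and when only the 2 groups compared were fitted (0.3247). It was also lost without any one of control arrays 1 or 2 or knockout arrays 1 or 2 of that region (0.0808 to 0.1522).

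Prox1 is made outside lymph vessels too, in developing neurons and muscle. Both marker lists scored higher in knockout than in control proximal maxilla. Prox1 was highest in knockout array 2 of this region, and the neuron and muscle scores were highest in knockout array 1. Among mandible arrays, the lowest Prox1 value (6.78) and the lowest muscle score (−2.67) were both those of control distal mandible 3. Neuron markers were higher in 11 of 11 in knockout proximal maxilla, 7 of them called, such as the neurofilament Nefm at 4.27 and the sensory factor Pou4f1 at 5.09. The neuron score was 3.05, 2.84 and 1.19 in the 3 knockout arrays and lay between −0.13 and 0.16 in the 3 control arrays. Muscle markers were higher in 9 of 9, 1 of them called, with scores of 2.01, 0.73 and −0.56 in knockouts and −2.51 to −1.78 in controls, and epithelial markers were lower in 10 of 10, 7 of them called. Of all genes, 5.77% were called in this region. The part of these cells in the Prox1 difference was not tested.

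The other large differences in that region did not pass. Vwf had 9.80, 9.30 and 9.44 in knockout proximal maxilla against 7.71, 9.16 and 9.43 in control proximal maxilla, a difference of 0.75 (SE 0.41, adjusted p = 0.2576). Emcn had 10.32, 10.22 and 10.15 in knockouts against 8.83, 9.86 and 9.92 in controls, without overlap, a difference of 0.70 (SE 0.27, adjusted p = 0.1162). For both, the lowest control value was that of array 1, which resembled the distal end. Esm1 had 7.08, 5.72 and 6.66 in knockouts against 7.44, 7.17 and 7.02 in controls, overlapping at 1 array, with a difference of −0.72 (SE 0.31, adjusted p = 0.1533). Erg had 9.77, 9.22 and 9.25 in knockouts against 9.98, 9.93 and 9.86 in controls, without overlap, at −0.51 (SE 0.18, adjusted p = 0.0909), and Fli1 followed at −0.38. Of the 35 further vessel genes, Nrp1 was called higher there at 0.89, and Gata2 at −1.50 and Unc5b at −0.87 were called lower. Of all genes, 5.77% were called there.

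No endothelial gene was called for a knockout effect that differed between the jaws (0 of 38, 0.0336% of all genes) or between the ends (0 of 38, 0.00672%). Between the jaws, the difference of effects in the mandible minus those in the maxilla was largest for Gja4 at 0.37 (SE 0.17, adjusted p = 0.7253), followed by Sox17 at 0.27 and Cd34 at 0.26. It was lowest for Prox1 at −0.51 (SE 0.29, adjusted p = 0.8366), Emcn at −0.38 and Icam2 at −0.15. Between distal and proximal ends it was highest for Esm1 at 0.50 (SE 0.31, adjusted p = 0.9997), Sox18 at 0.27 and Gja4 at 0.23, and lowest for Prox1 at −0.35, Cldn5 at −0.28 and Emcn at −0.21. At an unadjusted p of 0.05, 1 of 38 passed between the jaws (6.62% of all genes) and 0 between the ends (4.29%).

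More endothelial genes were called between the jaws than between the genotypes. Averaged over both genotypes and both ends, 11 of 38 endothelial genes were called between mandible and maxilla (28.9%), 8 higher and 3 lower in the mandible. Of all genes, 46.6% were called, 25.1% higher and 21.4% lower, so the endothelial share lay below the background, a difference that was not tested. Their median difference was 0.05 against 0.02 over all genes. With array medians centred, 14 were called higher and 2 lower. The share of all genes called under that setting is not given here, so these counts have no background. The difference was positive in all 4 genotype and end pairs for 11 of 38 and negative in all 4 for 5, against 30.7% and 22.9% of all genes.

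Prox1 showed the largest difference. Its lowest, median and highest values were 6.78, 7.42 and 7.92 in the 12 mandible arrays, against 5.38, 6.04 and 7.66 in the 12 maxilla arrays. The highest 3 maxilla arrays were those of knockout proximal maxilla, and the difference was 1.25 (SE 0.15, limma adjusted p = 3.71e-06). Since several maxilla values lay below background, the size of the difference is uncertain. The second probe set of Prox1 gave 0.25. The difference was called under all 37 other settings tried.

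Among surface and junction genes, Pecam1, Icam2, Cd34 and Emcn were called higher in the mandible. Pecam1 had 8.84, 9.37 and 9.82 in mandible arrays against 8.18, 8.81 and 9.10 in maxilla arrays, with a difference of 0.65 (SE 0.13, limma adjusted p = 6.285e-04). The ranges overlapped, but in each of the 4 genotype and end pairs the mandible mean was higher, by 0.78 and 0.71 in knockout and control distal ends and by 0.45 and 0.67 in knockout and control proximal ends. Icam2, an adhesion protein, had 9.35, 9.84 and 10.05 in mandible arrays against 9.12, 9.53 and 9.72 in maxilla arrays, at 0.30 (SE 0.08, adjusted p = 0.0071). Cd34, a sialomucin of young vessels and blood stem cells, had 10.68, 10.94 and 11.58 in mandible arrays against 10.16, 10.68 and 11.07 in maxilla arrays, at 0.33 (SE 0.10, adjusted p = 0.0118). Emcn had 9.61, 10.08 and 10.42 in mandible arrays against 8.83, 9.88 and 10.32 in maxilla arrays, at 0.38 (SE 0.14, adjusted p = 0.0270). Between knockout proximal ends Emcn was lower in the mandible, at −0.10, and in the other pairs it was higher. Pecam1 and Icam2 were called under all 37 other settings, whereas Cd34 missed in controls alone (adjusted p = 0.301) and Emcn in 5 settings. The other junction genes, Cdh5 at 0.04, Esam at 0.05 and Cldn5 at 0.06, were not called, although a second probe set of Cdh5 gave 0.35 (adjusted p = 7.762e-04).

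Among receptors and ligands, Flt4, the VEGF-C receptor of lymphatic and sprouting endothelium, had 9.37, 9.71 and 10.10 in mandible arrays against 8.91, 9.54 and 9.79 in maxilla arrays, a difference of 0.28 (SE 0.09, adjusted p = 0.0153), with 0.17 (adjusted p = 0.0880) from its second probe set. Its call was lost without the 4 arrays with Y-linked signal (adjusted p = 0.0684) and in controls alone (0.0885). Kdr, at 0.22 (adjusted p = 0.0807), and Flt1, at −0.03, were not called. Stab2, a scavenger receptor of sinusoids, had 6.38, 6.49 and 6.67 in mandible arrays against 6.03, 6.29 and 6.47 in maxilla arrays, at 0.23 (SE 0.05, adjusted p = 0.0010), though all of its values lay just above background. Apln, the tip-cell peptide, had 8.57, 8.91 and 9.19 in mandible arrays against 8.28, 8.59 and 9.28 in maxilla arrays, at 0.27 (SE 0.09, adjusted p = 0.0209). Its call was lost without the 4 doubted arrays (adjusted p = 0.0837), without those with Y-linked signal (0.0652) and in controls alone (0.0839), and its receptor Aplnr differed by −0.01. The values overlapped in each of these genes.

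Erg, Eng and Gja4 were the 3 called lower in the mandible. Erg had 8.98, 9.43 and 9.67 in mandible arrays against 9.22, 9.78 and 10.26 in maxilla arrays, at −0.35 (SE 0.09, limma adjusted p = 0.0049). Its second probe set gave −0.00, so its probe sets disagreed, and the mean of both missed the threshold (adjusted p = 0.0681). Eng had 9.83, 9.96 and 10.24 in mandible arrays against 9.78, 10.23 and 10.63 in maxilla arrays, at −0.24 (SE 0.07, adjusted p = 0.0140), with −0.17 from its second probe set. Its call was lost without the 4 arrays with Y-linked signal (0.0746) and in controls alone (0.0568). Gja4 had 8.02, 8.95 and 9.18 in mandible arrays against 8.48, 9.01 and 9.25 in maxilla arrays, at −0.23 (SE 0.09, adjusted p = 0.0317), and its call was lost in 11 of 37 other settings. The 3 lowest mandible values of Gja4 were those of control distal mandible. By pair, Gja4 differed by −0.86 in control and −0.17 in knockout distal ends. At the proximal ends it was not lower in the mandible, at 0.02 in controls and 0.07 in knockouts. Vwf had 7.04, 8.53 and 9.22 in mandible arrays against 7.71, 9.10 and 9.80 in maxilla arrays, at −0.43, and was not called (SE 0.21, adjusted p = 0.0915).

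**Figure D4:**
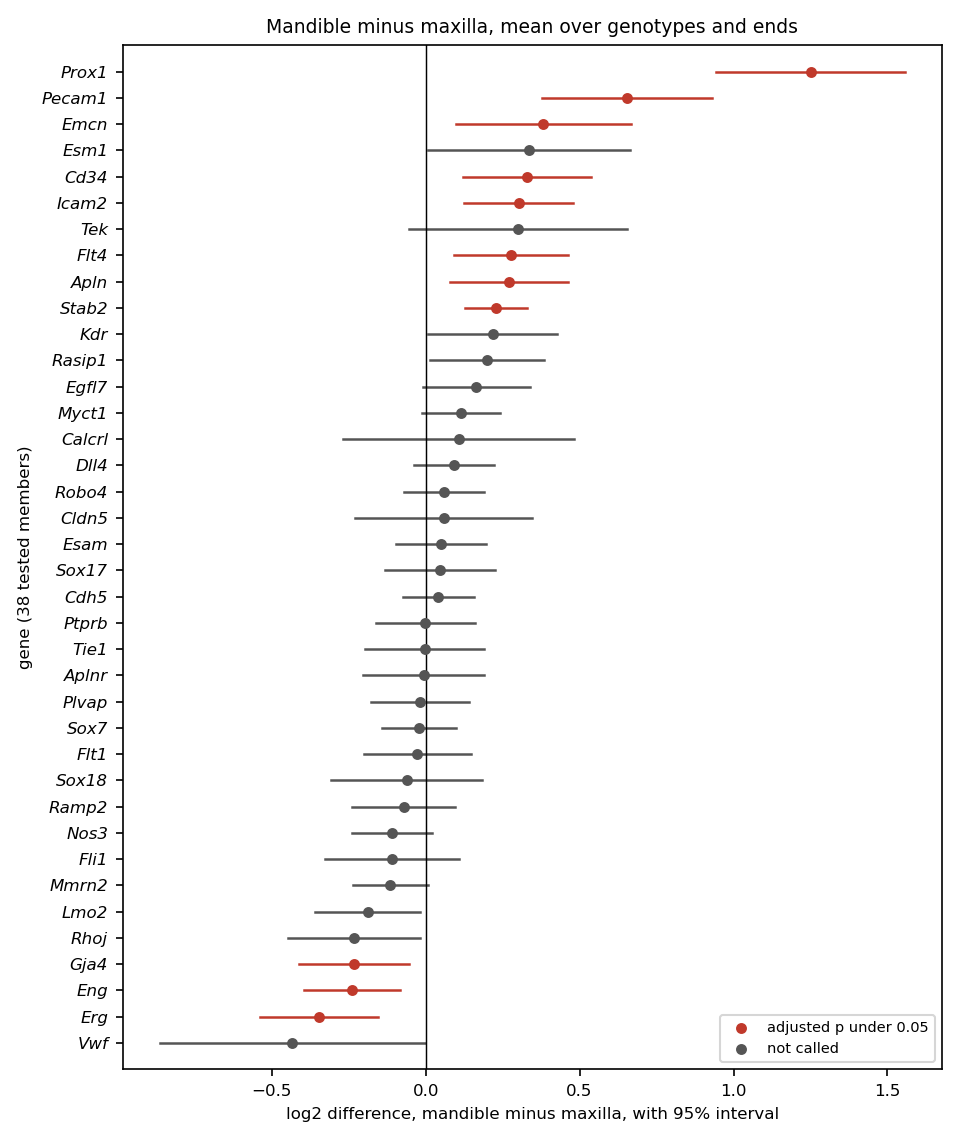
Difference of mandible minus maxilla, averaged over both genotypes and both ends, for 38 endothelial genes (points, log2 units, horizontal axis), with limma's 95% intervals unadjusted for the number of genes (lines). Red points passed an adjusted p of 0.05: 8 genes higher in the mandible, from Stab2 at 0.23 to Prox1 at 1.25, and 3 lower, Erg, Eng and Gja4.

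Of the 35 further vessel genes, 16 were called between the jaws, 8 each way. Of all genes, 46.6% were called, 25.1% higher and 21.4% lower, so the vessel count lay near the background. The same shares hold for the marker lists below. Higher in the mandible were Tmem100, an endothelial target of BMP signals, at 0.86 (SE 0.15, adjusted p = 1.691e-04), the venous receptor Ephb4 at 0.33, the sphingosine receptor S1pr1 at 0.32 and the Tek ligand Angpt1 at 0.30. Lower in the mandible were Gata2 at −3.26 (SE 0.18, adjusted p = 1.490e-09), the chemokine receptor Cxcr4 at −1.56, the Notch target Hey1 at −0.77 and the Tek ligand Angpt2 at −0.36. Gata2, Cxcr4 and Hey1 are made in many cells besides endothelium, among them neural cells. Muscle markers were called higher in the mandible in 9 of 9, with scores of −2.67 to 2.47 in mandible arrays and −3.09 to 2.01 in maxilla arrays, and neuron markers were lower in 9 of 11, 8 of them called, with scores of −1.33 to 0.98 in mandible arrays and −0.66 to 3.05 in maxilla arrays. Epithelial markers were lower in 7 of 10 (6 called lower and 1 higher), with scores of −1.68 to 0.30 in mandible arrays and −1.74 to 1.03 in maxilla arrays, and mesenchymal markers were higher in 6 of 6 (3 called), with scores of 0.05 to 0.21 in mandible arrays and −0.38 to 0.05 in maxilla arrays. Of glial markers, 1 of 5 was called, lower in the mandible. Macrophage markers were higher in 11 of 12, 2 of them called, with scores of −0.34 to 0.89 in mandible arrays and −0.88 to 0.53 in maxilla arrays. The Gapdh difference between 3' and 5' probe sets lay between −0.04 and 0.17 in mandible arrays and between 0.08 and 0.39 in maxilla arrays, and that of actin between 0.27 and 0.47 in mandible arrays and between 0.31 and 0.52 in maxilla arrays. The part of these cells and of RNA quality in the endothelial differences was not tested. Without the 4 doubted arrays, 13 of 38 were called between the jaws (34.2%, against 37.3% of all genes), 7 higher and 6 lower (of all genes, 19.8% and 17.5%).

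Along the jaws, most endothelial genes lay slightly lower at the distal than at the proximal end when both jaws and genotypes were averaged. The lean was larger in the maxilla. In the knockout mandible, where array 1 of each end is doubted, most were higher distally. None passed the unblocked test with all 24 arrays. With genotype and number as a random replicate block, Esm1 and Gja4 were called over both jaws (adjusted p = 0.0381 and 0.0480). Averaged over both jaws and genotypes, 0 of 38 were called (3.86% of all genes, or 0.282% to 16.6% with 1 array left out), 33 were lower and 5 higher distally, and the median difference was −0.08 against −0.01 over all genes, 55.4% of which were lower. With array medians centred, 27 were lower and 11 higher, and the split of all genes under that setting is not given here. At an unadjusted p of 0.05, 7 of 38 passed (18.4%, against 26% of all genes), namely Esm1, Gja4, Nos3, Prox1, Ptprb, Rhoj and Vwf. The sign was negative in all 4 genotype and jaw pairs for 7 genes (Emcn, Esam, Robo4, Mmrn2, Nos3, Ptprb and Vwf) and positive in all 4 for Esm1, against 19.2% and 13.7% of all genes.

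Vwf had 7.04, 8.23 and 9.22 in the 12 distal arrays against 7.71, 8.97 and 9.80 in the 12 proximal arrays, a difference of −0.58 (SE 0.21, limma adjusted p = 0.0915). Prox1 had 5.38, 6.44 and 7.92 in distal arrays against 5.44, 7.03 and 7.83 in proximal arrays, at −0.31, and Gja4 had 8.02, 8.91 and 9.18 against 8.48, 9.06 and 9.25, at −0.25 (SE 0.09, adjusted p = 0.0813). Esm1, a proteoglycan of sprouting tip cells, ran the other way with 6.96, 7.77 and 8.09 in distal arrays against 5.72, 7.33 and 8.06 in proximal arrays, at 0.50 (SE 0.16, adjusted p = 0.0711). Sox18 at 0.19 and Apln at 0.06 came next. All of these overlapped. Neuron markers were lower distally in 11 of 11 (6 called), glial markers in 5 of 5 (4 called), macrophage markers in 12 of 12 (0 called), mural markers in 7 of 10 (0 called) and muscle markers in 9 of 9 (0 called), while epithelial markers were higher in 10 of 10 (4 called). Scores lay between −0.65 and 0.89 in distal arrays and −0.88 and 0.53 in proximal arrays for macrophages, and between −0.63 and 0.61 in distal arrays and −0.51 and 0.45 in proximal arrays for mural cells. Of all genes, 3.86% were called in that comparison. The part of these cells in the endothelial values was not tested.

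In the mandible, 0 of 38 were called between the ends (0.504% of all genes), 21 were lower and 17 higher distally, and the median was −0.01. Of all genes, 57.3% were lower, with a median of −0.02. In the knockout mandible 23 of 38 were higher distally, against 43.6% of all genes, but array 1 of each end there is doubted. The endothelial score was 0.17, −0.00 and 0.01 in knockout distal mandible 1, 2 and 3. It was 0.14, −0.09 and 0.10 in knockout proximal mandible 1, 2 and 3. In the control mandible 27 of 38 were lower, against 55.5% of all genes. Gja4 came closest to a call. It had 9.18, 8.71 and 8.55 in knockout distal mandible and 8.02, 8.37 and 8.19 in control distal mandible, against 9.03, 9.08 and 9.11 in knockout proximal mandible and 8.96, 9.11 and 8.94 in control proximal mandible. Within controls the ends did not overlap, and over both genotypes the difference was −0.53 (SE 0.12, limma adjusted p = 0.0524 and, with the random replicate block, 0.0290). Vwf had 9.22, 8.30 and 7.90 in knockout distal and 7.04, 8.16 and 8.12 in control distal mandible, against 8.92, 9.02 and 8.84 in knockout proximal and 8.73, 8.58 and 8.49 in control proximal mandible, with a difference of −0.64 (SE 0.29, adjusted p = 0.3537). Its single high distal value was that of knockout distal mandible 1, an array that resembled the proximal end. Rhoj at −0.28, Sox18 at 0.21, Flt4 at 0.16 and Cldn5 at 0.15 followed. Without the 4 doubted arrays, Gja4 (−0.64, adjusted p = 1.75e-04) and Vwf (−0.83, adjusted p = 0.0186) were called lower distally, 2 of 38 against 6.88% of all genes, and 4.57% in that direction.

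In the maxilla, 0 of 38 were called between the ends with all arrays (0.0336% of all genes), and 30 of 38 were lower distally, with a median of −0.16 against −0.00 over all genes. The knockout maxilla, which holds none of the 4 doubted arrays but does hold knockout proximal maxilla 3, had 31 of 38 lower distally and a median of −0.22, against 48.1% lower and a median of 0.01 over all genes. In the control maxilla 28 of 38 were lower, with a median of −0.08, against 57.6% lower and a median of −0.02 over all genes. Tek had 9.25, 8.99 and 8.01 in knockout distal and 9.73, 8.74 and 8.11 in control distal maxilla, against 9.48, 9.44 and 9.52 in knockout proximal and 8.59, 9.39 and 9.46 in control proximal maxilla. In knockouts the ends did not overlap, and in controls array 1 of each end lay opposite to arrays 2 and 3. Over both genotypes Tek differed by −0.51 (SE 0.24, limma adjusted p = 0.2657). Prox1 differed by −0.61 (SE 0.21, adjusted p = 0.1694) and Vwf by −0.53 (SE 0.29, adjusted p = 0.3382), while Esm1 was higher distally by 0.87 (SE 0.22, adjusted p = 0.1288), followed by Sox18 at 0.16 and Erg at 0.10. Esm1 had 8.09, 7.71 and 7.70 in knockout distal and 6.96, 7.83 and 8.02 in control distal maxilla, against 7.08, 5.72 and 6.66 in knockout proximal and 7.44, 7.17 and 7.02 in control proximal maxilla. Again the knockout ends did not overlap, and control array 1 lay opposite to its group.

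Without the 4 doubted arrays, 13 of 38 endothelial genes were called between the ends of the maxilla (34.2%), 1 higher and 12 lower distally, against 6.66% of all genes, 3.07% higher and 3.59% lower. Those arrays were doubted because over all genes they resembled the other end, so leaving them out favours a difference between ends in any gene, and the background share rose with it. Esm1 was higher distally at 1.09 (SE 0.24, adjusted p = 0.0170). Lower distally were Vwf at −0.98 (SE 0.19, adjusted p = 0.0098), Tek at −0.87, the receptor Calcrl at −0.71, Emcn at −0.68, Cldn5 at −0.63, Kdr at −0.46, Ptprb at −0.45, Ramp2 at −0.39, the nitric oxide synthase Nos3 at −0.36, Lmo2 at −0.36, Sox17 at −0.32 and Esam at −0.31. For Calcrl, the 2 left-out maxilla arrays set the size of the difference. It had 10.18, 10.52 and 9.85 in knockout distal and 11.17, 9.54 and 9.60 in control distal maxilla, against 10.13, 10.31 and 10.86 in knockout proximal and 9.45, 10.84 and 10.65 in control proximal maxilla. The 11.17 and 9.45 are those of array 1, and the difference with them was −0.23. In the mean over both jaws, 9 of 38 were called without these arrays (23.7%, against 17.8% of all genes), 1 higher and 8 lower distally (of all genes, 6.83% and 10.9%).

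**Figure D5:**
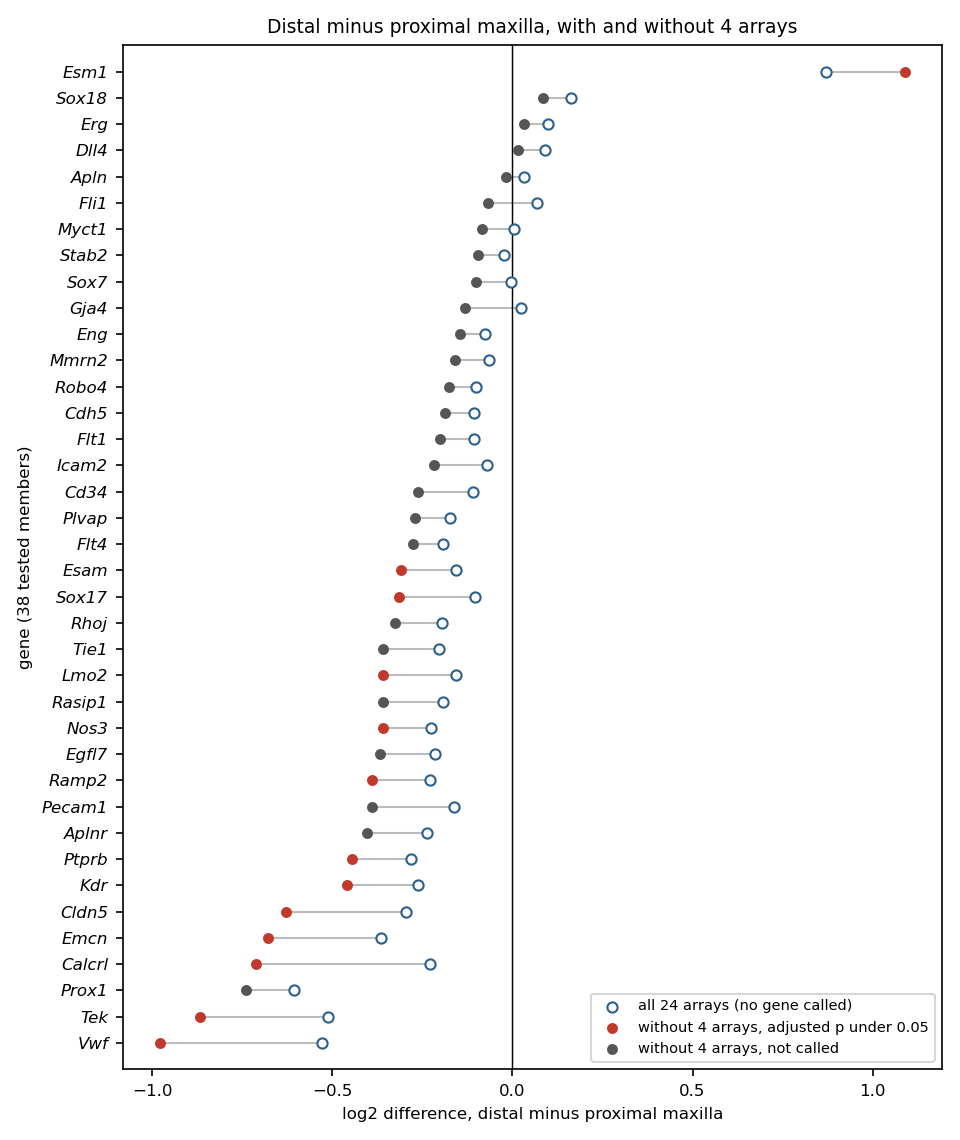
Difference of distal minus proximal maxilla for 38 endothelial genes (horizontal axis, log2 units), averaged over both genotypes. Open circles use all 24 arrays and filled circles leave out 4 arrays that resembled the other end of their jaw, red where the adjusted p was under 0.05. With all arrays 0 genes were called, and without the 4 arrays 13 were, 12 lower and 1 higher distally.

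The end differences were not shown to differ between the jaws. In a comparison added after the data were seen, 0 of 38 were called for a difference of the distal minus proximal difference, mandible minus maxilla, by limma, and 0% of all genes were called. By direction, 29 of 38 were positive and 9 negative, with a median of 0.12. Over all genes 42.7% were positive, with a median of −0.02. At an unadjusted p of 0.05, 2 of 38 passed (5.26%, against 5.47% of all genes), Esm1 at −0.75 (SE 0.31) and Gja4 at −0.56 (SE 0.17). Without the 4 doubted arrays Gja4 at −0.51 (adjusted p = 0.0367) and Lmo2 at 0.51 (adjusted p = 0.0463) were called, 2 of 38 against 0.793% of all genes. Among the 35 further vessel genes, 5 were called between the ends over both jaws with all arrays, against 3.86% of all genes. The VEGF-family ligand Pgf at −0.36, Nrp1 at −0.47, the Notch target Heyl at −0.78 and the venous factor Nr2f2 at −0.73 were lower distally, and the netrin receptor Unc5b was higher at 0.47.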

How the data were processed

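Biotin-labelled cRNA of 24 jaw samples was hybridised to single-colour arrays with 45101 probe sets. The log2 signals were deposited by the authors after RMA, which the submitters' processing notes name without a version. All 24 columns were mapped to samples by title, and no further normalisation was applied. Of the probe sets, 34945 had 1 gene symbol in the platform annotation and were updated through Entrez numbers, and the others were left out. The probe set with the highest mean stood for each gene. Limma 3.58.1 (R 4.3.3) fitted 8 group means to all 24 arrays (16 residual degrees of freedom). Contrasts were tested two-sided with the default prior, Benjamini-Hochberg adjustment ran over the 14879 genes tested, with calls at an adjusted p under 0.05. The number of arrays limits the precision. On simulated data for the knockout comparison over the regions, 98 of 100 genes changed by 1 and 91 of 100 changed by 0.5 were recovered. The simulation gave 4 false calls. In the real data, Fli1 at −0.45 and Prox1 at 0.55 were not called in that comparison. The recovered shares are therefore not the power for a given gene, whose spread may differ from the simulated one.

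Values are given for members called in a comparison (up to 8 by smallest p) and for the 3 highest and 3 lowest differences in each. Called members of the other lists are named, up to 4 a list, and values of further genes were added after they were seen. The members, lists, tests and arrays to leave out were chosen with earlier results of these data known. Alternatives were median centring, cyclic loess, other filters, the mean of all probe sets, trended and robust priors, array weights, blocks on array number, subsets of arrays and leaving out each array. Array numbers were not taken as pairs. Deviations of the same genotype and number correlated at a median of 0.15 (−0.65 to 0.54). That median includes the 4 doubted arrays, all of number 1, and does not exclude pairing. What a number marks is not stated. The 4 control arrays of number 2 shared Y-linked signal, so pieces of 1 embryo may share a number, and arrays of different regions may then not be independent.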

Additional observations from a re-analysis of the deposited data

How the results depend on the processing

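Counts are of the 38 genes called, and the share of all genes called under the same setting follows in percent. For knockout against control over the regions, 2 were called with array medians centred (Fli1 and Erg, 1.15%) and 1, Fli1, with cyclic loess (1.16%), a 50th percentile filter (2.11%) or a trended and robust prior (1.29%), against 0. Array weights gave 3 there (19.5%), 1 in distal mandible (4.31%), 1 in proximal mandible (1.98%), 5 in proximal maxilla (21.8%), 1 for the knockout effect compared between jaws (4.3%) and 19 between the jaws (52.8%). Between ends they gave 8 over both jaws (34.7%), 3 in the mandible (14.4%), 11 in the maxilla (25.7%) and 1 for the difference between jaws (2.4%). A 50th percentile filter gave 1 between the mandibular ends (0.824%). The array number as a fixed replicate block gave 3 for the knockout over the regions (Fli1, Erg and Prox1, 7.41%) and 2 in proximal maxilla (11.5%). A random replicate block on genotype and number gave 2 between ends over both jaws (Esm1 and Gja4, 11.5%) and 1 in the mandible (Gja4, 1.44%). With the 4 doubted arrays left out as well, a setting chosen after seeing the data, it gave 11 over both jaws (26.1%), 3 in the mandible (11.1%), 16 in the maxilla (13.6%), 3 for the difference between jaws (1.41%) and 0 in proximal maxilla. The blocks moved no other count by over 1.5 times. Without the 4 arrays with Y-linked signal, 6 were called between the jaws (34.9%) and 0 in proximal maxilla, and control arrays alone gave 7 between the jaws (30.9%) and 1 between the mandibular ends (3.45%). Only the 2 groups compared gave 0 in proximal maxilla. Without the 4 doubted arrays counts were 9, 2, 13 and 2 for the end comparisons, whose shares stand in the text above, and 0 in proximal maxilla. Leaving out 1 array at a time gave 0 to 3 for the knockout over the regions (3 without knockout proximal maxilla 3), 0 to 1 in distal mandible (1 without knockout distal mandible 3), 0 to 1 in proximal maxilla, 9 to 14 between the jaws (43.1% to 47.4%), and 0 to 4 (4 without control distal maxilla 1 or knockout distal mandible 1), 0 to 1 (1 without any of knockout distal or proximal mandible 1, control distal mandible 2, control proximal maxilla 1 or knockout proximal maxilla 3) and 0 to 2 (2 without knockout proximal maxilla 3) between ends over both jaws, in the mandible and in the maxilla. It gave 0 throughout in proximal mandible and distal maxilla and for differences of effects. The cause of these shifts was not tested. No direction of a called gene reversed. Genes near background (Prox1 in the maxilla, Stab2) and genes with 1 probe set, 23 of 40, are the least certain.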
